A study of Mus musculus with 12 samples.

Results

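The epidermal differentiation complex is a cluster of genes that keratinocytes switch on as they leave the basal layer and build the cornified envelope, the protein shell that replaces the plasma membrane of dying surface cells. Its members were taken as every row of the deposited table whose symbol starts with Sprr or Lce, together with Flg, Flg2, Hrnr, Rptn, Tchh, Tchhl1, Lor, Ivl, Crnn, Crct1, Lelp1 and Kprp where present. This rule found 45 of the 23359 genes in the table, and Flg was not analysed here. The 45 genes comprised 13 of the Lce1 family, 6 of the Lce3 family, Lce6a, 2 of the Sprr1 family (Sprr1a and Sprr1b), 10 of the Sprr2 family, Sprr3, Sprr4, 6 fused-type S100 genes (Flg2, Hrnr, Rptn, Tchh, Tchhl1 and Crnn) and 5 single genes (Lor, Ivl, Crct1, Kprp and Lelp1). All 45 lay on chromosome 3 between bases 92080271 and 93471980 of mm10 (GRCm38), a stretch of 1391710 bases.

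Skin of C3H/HeJ mice was profiled in 4 groups of 3 libraries: normal tissue, fibrotic tissue taken at 6 or at 20 weeks, and skin taken at 20 weeks after treatment with CD36highCD90+ cells, which the series describes as transplanted fibroblasts. The labels give no time point for normal skin, no sex or age, no way in which fibrosis was brought about and no control transplant. Nor is it stated that each library is a different animal, so p-values measure the spread between these libraries, which may be technical. Skin was dissected whole, and in such bulk samples fewer cells of a type and less RNA per cell cannot be told apart.

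Loricrin (Lor), involucrin (Ivl), the small proline-rich proteins (Sprr) and the late cornified envelope proteins (Lce) are substrates that transglutaminases crosslink into the envelope. Fused-type S100 proteins bind keratin filaments or join the envelope; trichohyalin (Tchh) does so mainly in the inner root sheath of the hair follicle. In human skin, LCE1 genes are known as genes of healthy epidermis, while LCE3 and several SPRR genes are known for being low in intact epidermis and raised after injury and in psoriasis.

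The upstream sequences of 6 members that mark the contrasts described below are printed first, because the families differed in the letters found there. RefSeq promoter windows (GRCm38.p6, 250 bases before to 50 bases after the annotated start) were matched for 40 of the 45 members. The 210 bases before the start are shown, 5′ to 3′ on the gene's own strand. They lie at chr3:92338930-92339139 for Sprr2d, the most abundant Sprr2 gene, and at chr3:92385475-92385684 for Sprr2h, both on the plus strand. Sprr1a is at chr3:92485882-92486091, minus strand. Lce3d, the Lce3 gene with the largest rise, is at chr3:92957180-92957389, plus strand. Lce1g, the Lce1 gene with the largest rise, is at chr3:92752339-92752548, and Lce1m, the Lce1 gene that fell, is at chr3:93019062-93019271, both on the minus strand. Capitals mark matches on either strand to the AP-1 motif TGACTCA, the octamer ATGCAAAT bound by POU factors, and the TATA box letters TATAAA, which do not overlap one another in these sequences.
Sprr2d: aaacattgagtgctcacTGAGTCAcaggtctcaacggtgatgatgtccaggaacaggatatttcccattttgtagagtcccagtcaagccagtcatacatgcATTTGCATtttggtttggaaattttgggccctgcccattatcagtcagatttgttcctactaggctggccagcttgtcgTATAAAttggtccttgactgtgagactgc
Sprr2h: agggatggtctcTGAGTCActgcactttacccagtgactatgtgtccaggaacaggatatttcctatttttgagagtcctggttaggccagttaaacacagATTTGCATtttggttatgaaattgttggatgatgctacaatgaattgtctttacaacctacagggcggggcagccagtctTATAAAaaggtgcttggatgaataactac
Sprr1a: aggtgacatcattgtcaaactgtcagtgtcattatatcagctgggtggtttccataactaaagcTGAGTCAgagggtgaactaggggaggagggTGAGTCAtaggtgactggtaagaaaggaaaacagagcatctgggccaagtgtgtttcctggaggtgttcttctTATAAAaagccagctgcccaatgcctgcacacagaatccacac
Lce3d: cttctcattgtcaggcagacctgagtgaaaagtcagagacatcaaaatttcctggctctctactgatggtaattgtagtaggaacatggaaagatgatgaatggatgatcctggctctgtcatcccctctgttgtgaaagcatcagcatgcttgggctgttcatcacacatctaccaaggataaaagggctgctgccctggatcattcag
Lce1g: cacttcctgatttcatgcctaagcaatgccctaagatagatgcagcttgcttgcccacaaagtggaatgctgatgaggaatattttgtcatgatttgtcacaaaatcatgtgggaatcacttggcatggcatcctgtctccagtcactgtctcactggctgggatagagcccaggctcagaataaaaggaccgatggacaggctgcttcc
Lce1m: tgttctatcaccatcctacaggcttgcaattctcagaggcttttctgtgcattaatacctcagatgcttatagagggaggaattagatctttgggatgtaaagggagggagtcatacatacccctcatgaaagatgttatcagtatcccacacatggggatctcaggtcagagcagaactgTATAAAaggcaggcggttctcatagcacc

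Both Sprr2 sequences carried the AP-1 letters, the octamer and the TATA letters in the same order, with the TATA match starting 29 bases before the annotated start. The same 3 motifs were found in 7 of the 8 Sprr2 windows searched, all but that of Sprr2a2. In those 7 genes the AP-1 matches, 8 in all, began 182 to 198 bases, the octamers 108 to 112 bases and the TATA matches 29 bases before the start. Sprr1a had 2 AP-1 matches, beginning 146 and 116 bases before the start, and a TATA match at 43 bases. Sprr1b, the member with the largest rise, had a TATA match at 30 bases and no AP-1 or octamer match. No AP-1 match was found in the windows of the 12 Lce1 or the 6 Lce3 genes searched, and the Lce3d and Lce1g sequences above hold none of the 3 motifs. Lce1m held the TATA letters 29 bases before its start. They were in 2 of the 12 Lce1 windows, the other being that of Lce1d, at 30 bases, a gene that rose at both times. Over all 40 members, AP-1 letters were in 10 windows (25.0%), against 5.2% of the 32851 mouse windows of the same length. The 3 members outside the Sprr2 family with a match were Sprr1a, Ivl and Lor. Octamer letters were in 7 member windows, all of the Sprr2 family, against 1.7% of all windows. TATAAA was in 19 member windows, against 13.6% of all windows. The ETS core CAGGAA, searched in the same way, was in 21 member windows, against 30.6% of all windows. These matches describe letters in a window and not bound sites.

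Expression was read as FPKM, fragments per kilobase of transcript and per fixed number of mapped fragments. Differences are given on the log2(FPKM + 1) scale with their standard error (SE), from 1 limma fit of all 12 libraries (3 in each group), and a gene was called at a Benjamini-Hochberg adjusted p under 0.05 over the 13761 genes that reached 1 FPKM in at least 3 libraries. Differences of low genes are understated on this scale. Of the 45 members, 44 were tested; Lelp1 was at 0.13 FPKM or lower in every library. Hrnr was tested but is left out of the counts, because it was listed at exactly 0 in all 3 libraries of fibrotic skin at 20 weeks; counts therefore cover 43 members. Of these, 14 were under 1 FPKM in every normal library and passed the filter only through other groups, so that a difference from normal skin was built into their being tested, and their counts are given apart. Sprr1b, Crnn and Tchhl1 reached 1 FPKM in 2 normal libraries and Sprr2d in 1, so these genes too needed other groups to pass. They are counted with the 29 other members.

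In fibrotic skin at 6 weeks, 34 of the 43 members were higher and 2 were lower than in normal skin. Among all tested genes, 17.6% were called higher and 21.7% lower in the same comparison. Of the 29 members with 1 FPKM or more in a normal library, 20 were higher, 2 (Lce1m and Flg2) were lower and 7 were not called. At 20 weeks, 34 of the 43 members were again higher and the same 2 genes, Lce1m and Flg2, were lower, against 15.3% and 18.2% of all tested genes. Of the 29 members present in normal skin, 22 were higher and 2 lower at 20 weeks. The median difference over these 29 members was 1.87 at 6 weeks and 1.80 at 20 weeks, beside -0.05 and -0.04 over all tested genes; with the 14 others, whose difference was built in, it was 3.48 and 3.41 over the 43. Both fibrotic groups were set against the same 3 normal libraries.

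Summed over the members but Hrnr, expression was 5384, 8182 and 7116 FPKM in normal skin, 19317, 27732 and 16455 at 6 weeks, 20849.6, 21738 and 17071 at 20 weeks and 12366, 7038 and 4473 in treated skin. This sum was 1.14% to 1.73% of all FPKM in normal skin, 2.73% to 4.07% at 6 weeks, 2.83% to 3.62% at 20 weeks, and 2.25%, 1.47% and 0.966% in the 3 treated libraries. Every fibrotic library lay above every normal library. Of the treated libraries, which all lay below the fibrotic ones, the first was above the normal range, the second within it and the third below it. Set against the basal keratins Krt5 and Krt14 of the same library, the ratio of the members' sum was 1.52, 2.25 and 2.26 in normal skin, 2.52, 3.18 and 2.22 at 6 weeks, 2.64, 2.71 and 3.01 at 20 weeks and 1.56, 1.09 and 0.953 in treated skin. In this ratio normal skin reached up to 2.26 and fibrotic skin at 6 weeks down to 2.22, so these groups overlapped, while all 3 libraries at 20 weeks were above all normal libraries. The 2 keratins were themselves higher in fibrotic skin, so the ratio is no fixed reference for keratinocyte content. Mean Krt14 was 1132 FPKM in normal skin, 4646 at 6 weeks and 4145 at 20 weeks, and mean Krt5 was 2314, 3293 and 3047.

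**Figure D1:**
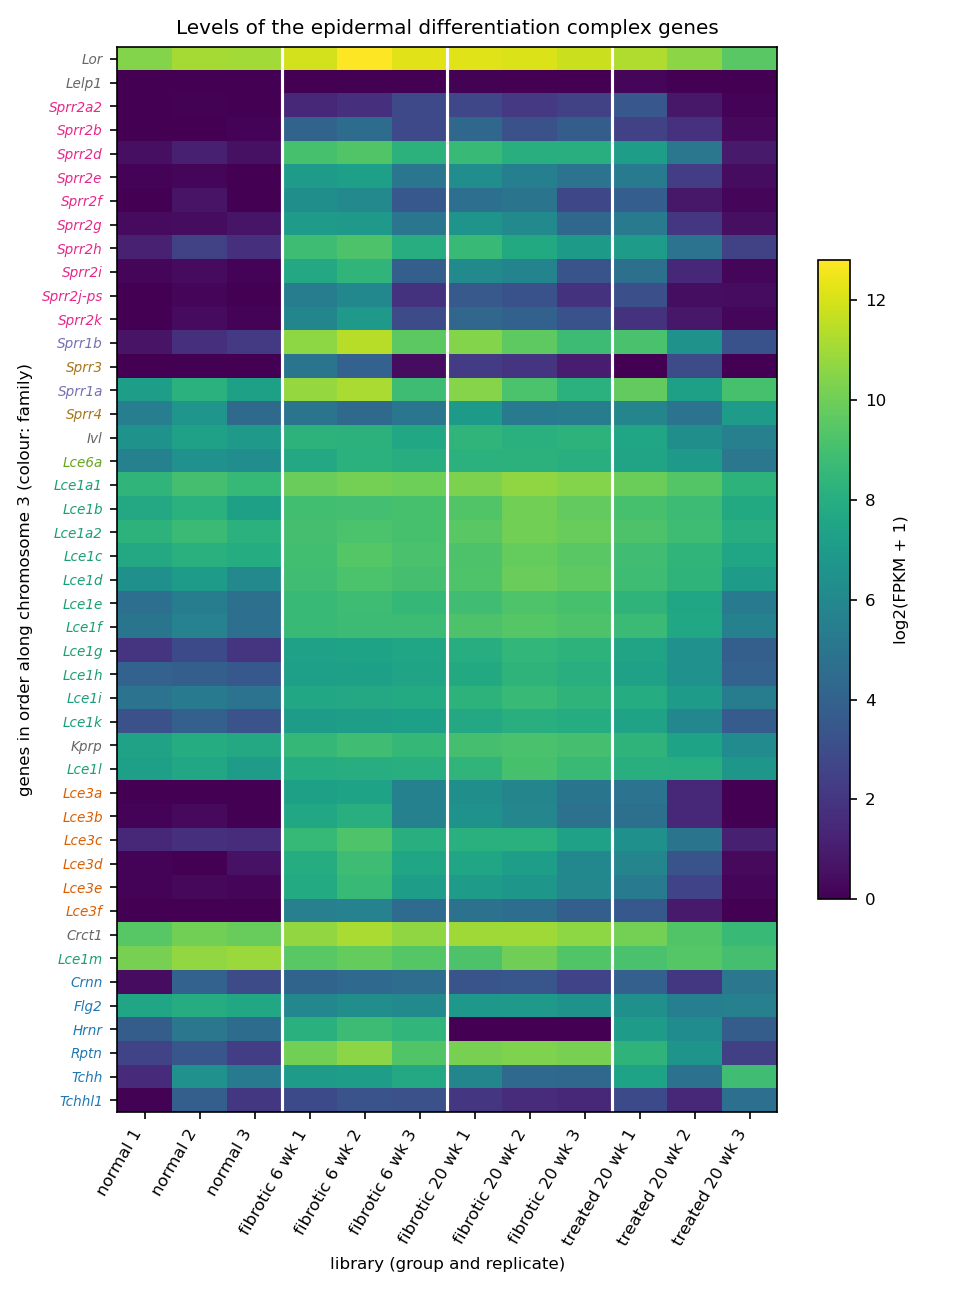
Heat map of log2(FPKM + 1) for the 45 members (rows, in order along chromosome 3, coloured by family) in the 12 libraries (columns). The Sprr2 and Lce3 rows are dark in normal skin and bright in fibrotic skin, Lce1m and Flg2 are brightest in normal skin, Hrnr is listed at 0 in the 3 libraries at 20 weeks, and the 3 treated libraries differ from one another.

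The Lce3 family went from traces in normal skin to over 300 FPKM in sum in every fibrotic library. Its 6 genes summed to 1.92, 2.74 and 2.72 FPKM in normal skin, 1254, 1961 and 699 at 6 weeks, 803, 662 and 354 at 20 weeks and 244, 47.6 and 1.65 in treated skin. All 6 were called higher at both times. The 4 genes not listed at 0 throughout normal skin differed from it by 7.0 to 7.84 at 6 weeks and by 5.62 to 6.64 at 20 weeks. Of the 6, 5 were under 1 FPKM in every normal library, so that a difference from normal skin was built into their being tested. Lce3a and Lce3f were listed at 0 in all normal libraries.

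Lce3c, the most abundant Lce3 gene, was at 1.66, 2.28 and 2.06 FPKM in normal skin, 383, 624 and 257 at 6 weeks, 283, 275 and 159 at 20 weeks and 85.8, 29.4 and 1.22 in treated skin. It was the only Lce3 gene above 1 FPKM in normal skin, and its difference was 7.05 ± 1.03 (adjusted p = 0.000958) at 6 weeks and 6.28 ± 1.03 (adjusted p = 0.00219) at 20 weeks. Lce3d was at 0.0933, 0 and 0.519 FPKM in normal skin, 243, 447 and 182 at 6 weeks, 186, 138 and 62.6 at 20 weeks and 56.5, 8.92 and 0.271 in treated skin. This gene had the largest rise of the family at both times, 7.84 ± 1.07 and 6.64 ± 1.07. Lce3e was at 0.0816, 0.230 and 0.144 FPKM in normal skin, 223, 400.0 and 142 at 6 weeks, 133, 109 and 61 at 20 weeks and 37.1, 4.96 and 0.158 in treated skin, with differences from normal skin of 7.67 ± 0.97 and 6.4 ± 0.97. Lce3d and Lce3e passed the filter only through other groups, so no p-value is given for these rises.

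Lce3b was at 0.0813, 0.234 and 0 FPKM in normal skin, 206, 266 and 49.2 at 6 weeks, 92.2, 60.4 and 26.9 at 20 weeks and 25.7, 1.75 and 0 in treated skin. Lce3a was at 0, 0 and 0 FPKM in normal skin, 152, 174 and 48.0 at 6 weeks, 81.9, 55.0 and 30.9 at 20 weeks and 28.1, 1.71 and 0 in treated skin. Lce3f, the least abundant of the family in fibrotic skin, was at 0, 0 and 0 FPKM in normal skin, 46.0, 50.6 and 21.5 at 6 weeks, 26.8, 23.8 and 13.5 at 20 weeks and 10.6, 0.923 and 0 in treated skin. In each of the 6 genes, replicate 3 was the lowest of the 6-week libraries and also the lowest of the 20-week and of the treated libraries. No fold is given for Lce3a and Lce3f against normal skin. Between 24.0% and 42.9% of the 101-base stretches of the Lce3c, Lce3d, Lce3e and Lce3f transcripts also occur in another gene's transcripts, with Lce3e or Lce3f as the main partner, so the split of reads among these 4 genes is uncertain.

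The Sprr2 family was likewise low in normal skin and high in fibrotic skin. Its 10 genes summed to 2.21, 7.95 and 3.88 FPKM in normal skin, 1656, 2129.7 and 659 at 6 weeks, 1128, 713 and 482 at 20 weeks and 412, 75.5 and 7.48 in treated skin. All 10 were called higher at 6 weeks (median difference 5.45) and 9 at 20 weeks (median 4.37). The exception was the pseudogene Sprr2j-ps, with a difference of 2.83 ± 1.04. Of the 10 genes, 8 were under 1 FPKM in every normal library, the others being Sprr2d and Sprr2h. For those 8 a difference from normal skin was built into their being tested.

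Sprr2d was at 0.415, 1.20 and 0.499 FPKM in normal skin, 532, 652 and 297 at 6 weeks, 411, 262 and 265 at 20 weeks and 139.7, 32.8 and 0.878 in treated skin. Its difference from normal skin was 8.14 ± 1.18 at 6 weeks and 7.52 ± 1.18 at 20 weeks, the largest of the family. Sprr2d needed other groups to pass the filter, so no p-value is given for these rises. Sprr2h was at 1.27, 4.84 and 2.43 FPKM in normal skin, 455, 607 and 253 at 6 weeks, 397, 220.1 and 126 at 20 weeks and 135, 28.5 and 4.69 in treated skin, with differences of 6.85 ± 0.94 (adjusted p = 0.000748) and 5.97 ± 0.94 (adjusted p = 0.00192). Normal skin held 1.27 to 4.84 FPKM of Sprr2h and at least 126 FPKM was found in every fibrotic library, with no overlap.

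Sprr2b was at 0, 0 and 0.0882 FPKM in normal skin, 15.7, 22.4 and 6.11 at 6 weeks, 18.3, 8.13 and 12.5 at 20 weeks and 4.52, 2.60 and 0.216 in treated skin. Sprr2k was at 0, 0.288 and 0.0806 FPKM in normal skin, 58.1, 116 and 6.60 at 6 weeks, 17.8, 14.6 and 8.32 at 20 weeks and 2.73, 0.753 and 0.169 in treated skin. Sprr2a2, the lowest of the family at 6 weeks, was at 0.0177, 0.0562 and 0.0201 FPKM in normal skin, 1.78, 2.35 and 6.04 at 6 weeks, 5.52, 3.41 and 4.65 at 20 weeks and 10.0, 0.778 and 0.0841 in treated skin. For Sprr2a2, 92.7% of 101-base stretches of the transcript also occur in Sprr2a1 and reads of the pair cannot be told apart. Its rise at 6 weeks (1.97 ± 0.70) was built into its being tested, and the call was lost under 12 of the other settings tried. The remaining members Sprr2e, Sprr2f, Sprr2g and Sprr2i rose by 5.09 to 6.45 at 6 weeks. Fibrotic libraries of 1 group differed widely: Sprr2i was at 212, 332 and 13.7 FPKM at 6 weeks, the third library being the lowest in 9 of the 10 Sprr2 genes.

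The Sprr1 genes differed from each other in normal skin. Sprr1b was at 0.608, 2.49 and 3.59 FPKM in normal skin, 1568, 2729 and 759 at 6 weeks, 1381, 786 and 445 at 20 weeks and 558, 94.6 and 8.5 in treated skin. Sprr1b had the largest difference of all members, 8.97 ± 1.19 at 6 weeks and 8.06 ± 1.19 at 20 weeks. This gene needed other groups to pass the filter, so no p-value is given for these rises. Sprr1a, already above 100 FPKM in normal skin, was at 137, 287 and 153 FPKM in normal skin, 1748, 2307 and 458 at 6 weeks, 1430.3, 584 and 287 at 20 weeks and 860.5, 153 and 543 in treated skin. Its difference was 2.75 ± 0.80 (adjusted p = 0.0220) at 6 weeks, a call lost under 5 of the other settings (adjusted p of up to 0.084). At 20 weeks the difference was 1.76 (95% interval -0.01 to 3.54, adjusted p = 0.112) and 1 of the 3 libraries was level with the highest normal library. Sprr3 was listed at 0 in all normal libraries and was at 29.5, 15.2 and 0.325 FPKM at 6 weeks, 3.71, 3.0 and 0.947 at 20 weeks and 0.0299, 6.80 and 0 in treated skin. Sprr4 was at 43.6, 101 and 20.7 FPKM in normal skin, 29.5, 20.8 and 31.4 at 6 weeks, 124, 36.8 and 39.9 at 20 weeks and 56.5, 28.8 and 127 in treated skin. Sprr4 was not called at either time (-0.73, 95% interval -2.21 to 0.75, adjusted p = 0.403, and 0.33, 95% interval -1.16 to 1.81, adjusted p = 0.735).

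**Figure D2:**
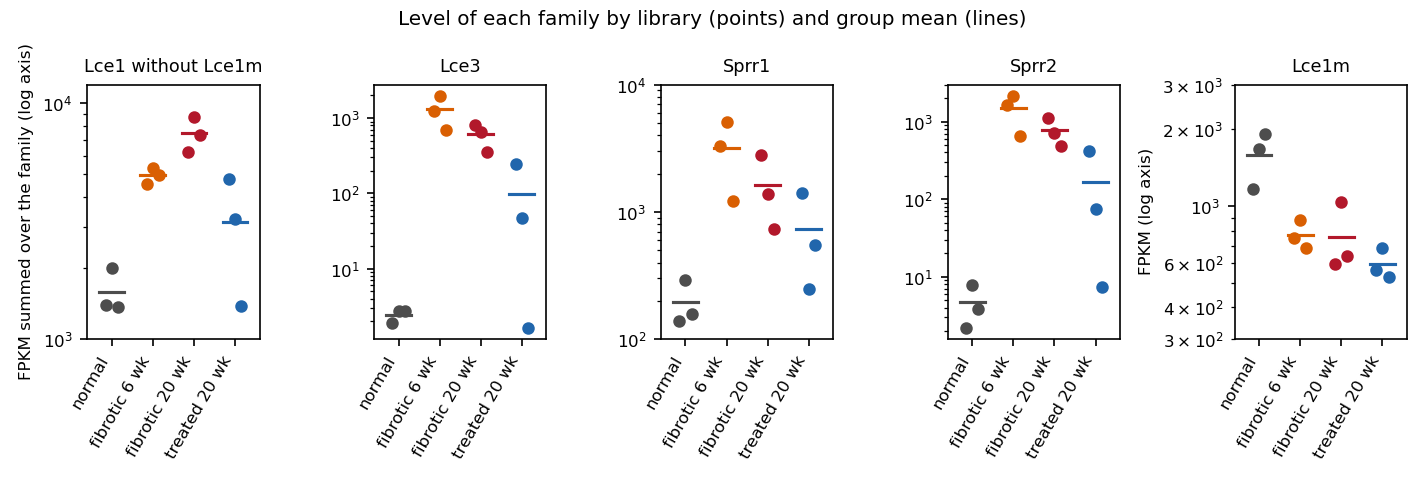
FPKM summed over each family (Lce1 without Lce1m, Lce3, Sprr1, Sprr2) and FPKM of Lce1m alone, on log axes, for each library (points) with the group mean (line). The 6 fibrotic libraries lie above the normal libraries in the 4 family panels, and the order is turned for Lce1m.

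The Lce1 family was abundant in normal skin and changed less as a whole. Its 13 genes summed to 2563, 3684 and 3289 FPKM in normal skin, 5302, 6185 and 5645 at 6 weeks, 6831, 9816 and 7960.2 at 20 weeks and 5350.4, 3902 and 1904 in treated skin. At 6 weeks 10 were higher, 1 was lower and 2 were not called, with a median difference of 2.53; at 20 weeks 12 were higher and 1 was lower, with a median of 3.11. The single lower gene was Lce1m at both times.

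Within the family the size of the rise differed by position along the chromosome. The 4 genes from Lce1a1 to Lce1c (bases 92646532 to 92680918) stood at 157 to 522 FPKM in normal skin, and their differences were 0.70 to 1.33 at 6 weeks and 1.42 to 1.98 at 20 weeks. The 7 genes from Lce1d to Lce1k (bases 92685499 to 92807891) stood at 2.79 to 131 FPKM in normal skin, and all 7 rose at both times, by 2.53 to 5.18 and 3.11 to 6.00. The stretches were drawn after their values were seen, and the genes with the lower levels in normal skin were those with the larger differences.

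Lce1a1 was at 329, 522 and 382 FPKM in normal skin, 927, 1129 and 995 at 6 weeks, 1259.7, 1625 and 1370.3 at 20 weeks and 968, 678 and 311 in treated skin. It was the most abundant of the first stretch, with differences of 1.33 ± 0.35 (adjusted p = 0.0140) and 1.80 ± 0.35 (adjusted p = 0.00445). Lce1b was at 208, 288 and 157 FPKM in normal skin, 481, 504 and 537 at 6 weeks, 644, 1072 and 844 at 20 weeks and 539, 432 and 218 in treated skin. Lce1a2 was at 309, 421 and 289.6 FPKM in normal skin, 518, 581 and 538 at 6 weeks, 732, 1096 and 911 at 20 weeks and 611, 449.9 and 249 in treated skin, with a difference of 0.70 (95% interval 0.05 to 1.35, adjusted p = 0.0803) at 6 weeks and 1.42 ± 0.29 (adjusted p = 0.00581) at 20 weeks. Lce1c was at 208, 283 and 244 FPKM in normal skin, 495, 689 and 558 at 6 weeks, 604, 865 and 728 at 20 weeks and 467, 337 and 189.9 in treated skin. In these 4 genes every fibrotic library was above every normal library.

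Lce1d was at 84.6, 131 and 63.3 FPKM in normal skin, 469, 582 and 514 at 6 weeks, 615, 943 and 799 at 20 weeks and 448, 325 and 129.6 in treated skin. Lce1e was at 24.2, 41.4 and 25.7 FPKM in normal skin, 393, 462 and 371 at 6 weeks, 470.4, 611 and 541 at 20 weeks and 324, 182 and 39.5 in treated skin. Lce1i was at 28.8, 36.2 and 28.4 FPKM in normal skin, 205, 211 and 226 at 6 weeks, 311, 394 and 319 at 20 weeks and 239, 128 and 42.0 in treated skin. These 3 genes had no library of either fibrotic group within the normal range, and in each of them replicate 2 was the highest at 20 weeks. Lce1g, lowest of the family in normal skin, was at 2.79, 6.34 and 2.79 FPKM in normal skin, 160.5, 169.6 and 182 at 6 weeks, 249, 355 and 308 at 20 weeks and 180.1, 89.2 and 13.5 in treated skin. Its difference was 5.18 ± 0.72 (adjusted p = 0.000755) at 6 weeks and 6.00 ± 0.72 (adjusted p = 0.000614) at 20 weeks, the largest of the family. Lce1f, Lce1h and Lce1k rose by 3.48 to 3.67 at 6 weeks and 4.18 to 4.45 at 20 weeks. Lce1l, which lies past the keratinocyte proline-rich protein gene Kprp, was at 151, 201 and 135 FPKM in normal skin, 242, 249 and 272 at 6 weeks, 330.5, 534 and 404 at 20 weeks and 262, 249 and 108 in treated skin, with a difference of 0.67 (95% interval -0.03 to 1.37, adjusted p = 0.116) at 6 weeks and 1.37 ± 0.32 (adjusted p = 0.00945) at 20 weeks.

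Lce1m was at 1164, 1677 and 1917 FPKM in normal skin, 746, 879 and 684 at 6 weeks, 595, 1033 and 639 at 20 weeks and 559, 684 and 528 in treated skin. This gene, on the far side of the Lce3 genes next to Crct1 (bases 93017807 to 93019061), fell in both fibrotic groups, with differences of -1.02 ± 0.24 (adjusted p = 0.00948) at 6 weeks and -1.08 ± 0.24 (adjusted p = 0.00867) at 20 weeks. No fibrotic or treated library reached the lowest normal library. Lce1m made up 45.4%, 45.5% and 58.3% of the Lce1 sum in the normal libraries, 12.1% to 14.2% at 6 weeks and 8.02% to 10.5% at 20 weeks. No 101-base stretch of its transcript occurs in transcripts of the other Sprr, Lce and named genes, the only ones searched. Lce6a, a single-gene subfamily on the other side of the Lce1 genes, was at 49.3, 87.7 and 77.3 FPKM in normal skin, 211, 286 and 249 at 6 weeks, 290.4, 295 and 268 at 20 weeks and 175, 122 and 32.8 in treated skin, with differences of 1.81 ± 0.49 (adjusted p = 0.0158) and 2.02 ± 0.49 (adjusted p = 0.0117).

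**Figure D3:**
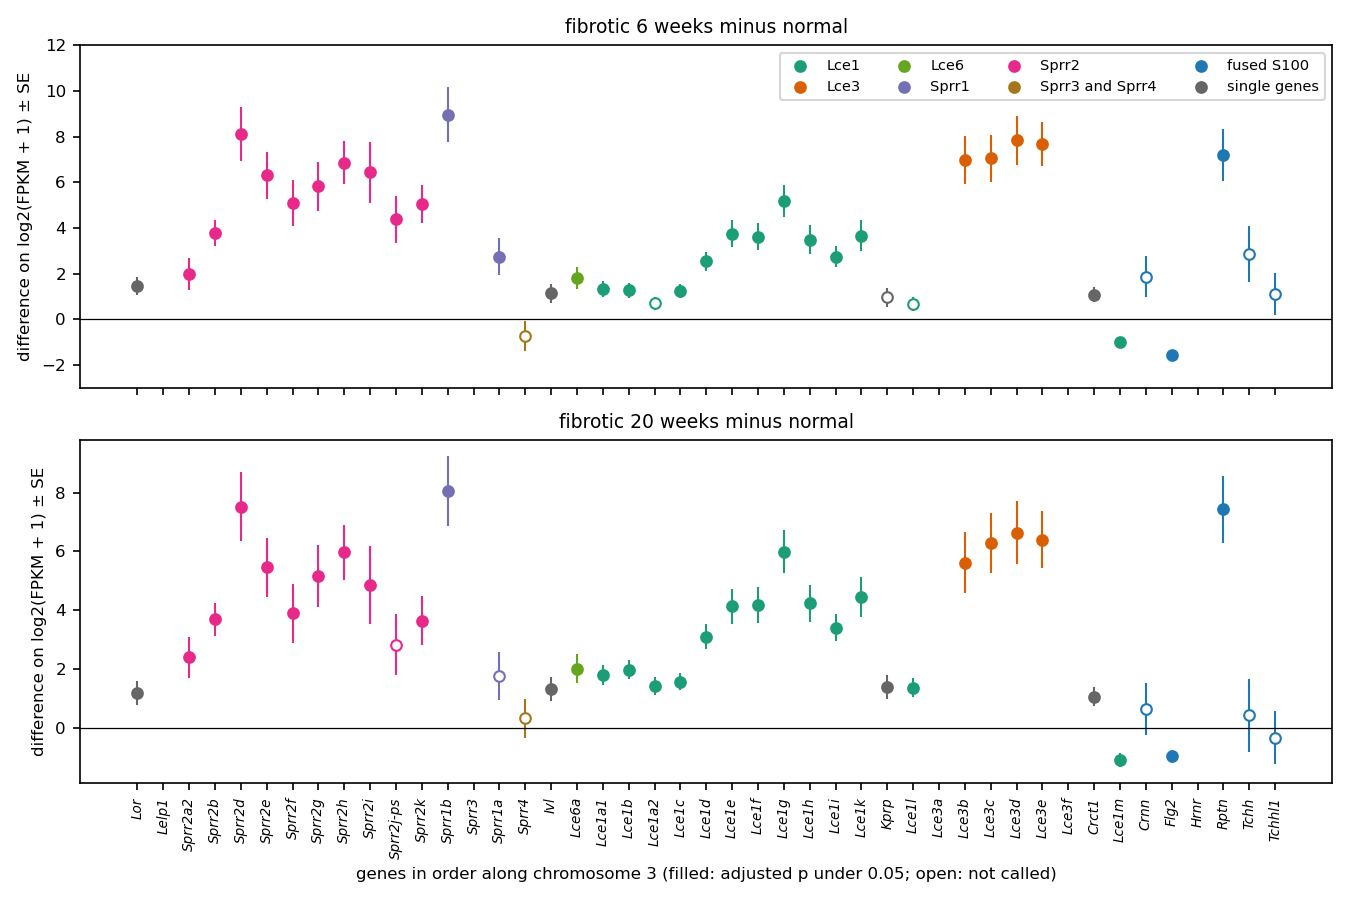
Difference from normal skin on log2(FPKM + 1), with SE, of each member in fibrotic skin at 6 weeks (top) and at 20 weeks (bottom), in order along chromosome 3 and coloured by family. Filled points passed an adjusted p of 0.05; Sprr3, Lce3a and Lce3f (listed at 0 in normal skin), Lelp1 (not tested) and Hrnr (listed at 0 at 20 weeks) have no point. Sprr1b, Sprr2d and Rptn and the Lce3 genes with a point are above 5 in both panels, and Lce1m and Flg2 lie below 0.

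Among the single envelope genes, loricrin was the most abundant of all members. Lor was at 1404, 2159 and 2065 FPKM in normal skin, 3848, 7176 and 4757 at 6 weeks, 4629.9, 4555 and 3525 at 20 weeks and 2462, 1547 and 743 in treated skin. Its differences were 1.46 ± 0.40 (adjusted p = 0.0168) at 6 weeks and 1.19 ± 0.40 (adjusted p = 0.0434) at 20 weeks; the second call was lost under 12 of the other settings, with an adjusted p of up to 0.172, although all 3 libraries at 20 weeks were above all normal libraries. Ivl, an early envelope scaffold, was at 96.2, 158 and 116 FPKM in normal skin, 305, 304 and 206 at 6 weeks, 327, 279.9 and 314 at 20 weeks and 185, 83.1 and 46.0 in treated skin. Its differences were 1.14 ± 0.41 (adjusted p = 0.0484) and 1.33 ± 0.41 (adjusted p = 0.0306), and the call at 6 weeks was lost under 12 other settings (adjusted p of up to 0.146). Crct1, a cysteine-rich protein gene between the Lce3 genes and Lce1m, was at 726, 1079 and 918 FPKM in normal skin, 1703, 2361 and 1665 at 6 weeks, 2026, 2008 and 1599.5 at 20 weeks and 1137, 633 and 414 in treated skin, with differences of 1.07 ± 0.32 (adjusted p = 0.0250) and 1.06 ± 0.32 (adjusted p = 0.0304). Kprp was at 166, 239 and 213 FPKM in normal skin, 363, 467 and 372 at 6 weeks, 523, 557 and 520.3 at 20 weeks and 326, 169 and 71.6 in treated skin, with differences of 0.97 (95% interval 0.04 to 1.89, adjusted p = 0.0897) at 6 weeks and 1.39 ± 0.42 (adjusted p = 0.0290) at 20 weeks. The other calls of these 4 genes were lost under 3 to 6 other settings, with an adjusted p of up to 0.101. In each of the 4 the normal and the fibrotic libraries did not overlap.

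The fused-type S100 genes went different ways. Repetin (Rptn), an envelope protein with internal repeats, was at 5.14, 9.93 and 4.03 FPKM in normal skin, 1081, 1542 and 643 at 6 weeks, 1168, 1293 and 1156 at 20 weeks and 323, 98.9 and 4.35 in treated skin. Its rise, 7.20 ± 1.15 (adjusted p = 0.00140) and 7.44 ± 1.15 (adjusted p = 0.00172), was exceeded at 20 weeks by Sprr1b and Sprr2d alone among the members. Filaggrin 2 (Flg2), a filaggrin-like protein of the upper epidermis, was at 186, 246 and 203 FPKM in normal skin, 61.1, 78.5 and 69.7 at 6 weeks, 112, 119 and 93.3 at 20 weeks and 84.0, 45.7 and 46.2 in treated skin. Flg2 fell, with differences of -1.58 ± 0.22 (adjusted p = 0.000824) at 6 weeks and -0.96 ± 0.22 (adjusted p = 0.00986) at 20 weeks, with no fibrotic library within the normal range. Hornerin (Hrnr), another filaggrin-like protein, was at 12.6, 32.3 and 21.8 FPKM in normal skin, 284, 432 and 346 at 6 weeks and 129, 73.5 and 12.7 in treated skin, and was listed at 0 in the 3 libraries at 20 weeks, where no fold is given. Among all genes, 22 are listed at 0 in some libraries while at 10 FPKM or more elsewhere, the keratins Krt1 and Krt10 among them. No difference of Hrnr is given for 6 weeks either, because the values of 0 at 20 weeks enter the estimate of its spread. Its lowest library at 6 weeks (284 FPKM) was above its highest normal library (32.3 FPKM).

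Tchh was at 1.99, 89.0 and 37.0 FPKM in normal skin, 135, 140.1 and 210.2 at 6 weeks, 58.9, 19.8 and 18.9 at 20 weeks and 172, 27.4 and 465 in treated skin. Tchhl1, its neighbour, was at 0.0689, 13.5 and 3.28 FPKM in normal skin, 6.35, 8.75 and 8.10 at 6 weeks, 3.06, 2.09 and 1.68 at 20 weeks and 6.29, 1.69 and 24.5 in treated skin. Cornulin (Crnn), a fused-type S100 protein known from squamous epithelium, was at 0.349, 15.3 and 6.78 FPKM in normal skin, 16.4, 19.6 and 22.5 at 6 weeks, 8.98, 9.73 and 5.00 at 20 weeks and 14.4, 3.15 and 32.8 in treated skin. None of these 3 was called in either fibrotic group, and the normal libraries alone differed by more than 10-fold. At 6 weeks the difference was 2.87 (95% interval 0.14 to 5.61, adjusted p = 0.0874) for Tchh, 1.10 (95% interval -0.92 to 3.12, adjusted p = 0.357) for Tchhl1 and 1.87 (95% interval -0.10 to 3.84, adjusted p = 0.116) for Crnn. Their highest single library was the third treated one. That library also held the highest sums of hair markers: the 8 inner root sheath genes summed to 101, 450.5 and 244 FPKM in normal skin, 909, 715 and 1396 at 6 weeks, 379, 221 and 188 at 20 weeks and 1600.3, 284 and 2969.8 in treated skin, and the 9 hair shaft keratins to 1.20, 115 and 21.6 FPKM in normal skin, 520.0, 354 and 614 at 6 weeks, 86.8, 61.2 and 34.7 at 20 weeks and 627, 133 and 1911 in treated skin. The part of hair follicle content in the levels of these 3 genes was not tested.

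Markers of other keratinocyte states differed between the groups as well. The 4 keratins of wounded or hyperproliferative epidermis, Krt6a, Krt6b, Krt16 and Krt17, summed to 596, 592 and 357 FPKM in normal skin, 10076, 13864 and 5661 at 6 weeks, 8945, 6785 and 3383 at 20 weeks and 7453, 1132 and 1183 in treated skin, with all but Krt17 called higher in each fibrotic group and none listed at 0 throughout a group. Basal keratinocyte markers (6 genes) summed to 3927 to 4266 FPKM in normal skin, 7741 to 9079 at 6 weeks, 5996 to 8439 at 20 weeks and 5161 to 8326 in treated skin. That sum was mostly Krt5 and Krt14, and the single genes went different ways. Of the 6 genes, 2 were called higher and 3 lower at 6 weeks, and 1 higher and 2 lower at 20 weeks. From normal skin to 6 weeks the mean of Krt14 went from 1132 to 4646 FPKM and that of Col17a1 from 413 to 177. Suprabasal markers (6 of the 8 listed, without Krt1 and Krt10) summed to 10081 to 12904 FPKM in normal skin. Their sum was 9902 to 12024 FPKM at 6 weeks, 13059 to 13918 at 20 weeks and 4296 to 10305 in treated skin. Of these 6 genes, 2 were called higher and 1 lower at each time. Among all tested genes, 17.6% were called higher and 21.7% lower at 6 weeks, and 15.3% and 18.2% at 20 weeks. The differences of the 6 suprabasal genes ran from -3.23 to 3.86 at 6 weeks and from -2.05 to 6.88 at 20 weeks. Krt1 and Krt10, listed at 0 in libraries at 20 weeks, had means of 1214 and 4490 FPKM in normal skin and 14514 and 12711 at 6 weeks. The part of these shifts in the members' levels was not tested. Skeletal muscle genes ranged from 45.5 to 4776 FPKM in sum across libraries of all groups.

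Genes that act with the complex were taken from 4 lists. Beside their counts, 17.6% of all tested genes were called higher and 21.7% lower at 6 weeks, and 15.3% and 18.2% at 20 weeks. Of 15 enzymes that crosslink or process envelope proteins, 8 were higher and 1 lower at 6 weeks, and 11 were higher and 0 lower at 20 weeks. Casp14, the caspase that processes filaggrin, rose by 3.98 ± 0.54 (adjusted p = 0.000729) and 3.67 ± 0.54 (adjusted p = 0.00150). Tgm3, an epidermal transglutaminase, rose by 3.21 ± 0.33 (adjusted p = 0.000211) and 2.96 ± 0.33 (adjusted p = 0.000552). Asprv1, the skin aspartic protease, rose by 2.12 ± 0.47 (adjusted p = 0.00687) and 2.68 ± 0.47 (adjusted p = 0.00306). The 1 lower enzyme-list gene at 6 weeks was Cst6, the cystatin M/E gene and thus an inhibitor, at -1.5 ± 0.34 (adjusted p = 0.00697). Of 14 other envelope and corneodesmosome genes, 5 were higher and 1 lower at 6 weeks and 7 higher and 1 lower at 20 weeks; Cnfn (cornifelin) rose by 2.61 ± 0.40 (adjusted p = 0.00111) and 2.73 ± 0.40 (adjusted p = 0.00136), and Scel (sciellin) fell (-1.02 ± 0.13, adjusted p = 0.000489, and -0.63 ± 0.13, adjusted p = 0.00539).

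Of 14 tested S100 and peptidoglycan recognition genes of the same locus, 7 were higher at 6 weeks with 0 lower, and 3 were higher and 2 lower at 20 weeks. S100a8, whose product pairs with that of S100a9 in neutrophils and stressed keratinocytes, was at 6.13, 5.96 and 28.4 FPKM in normal skin, 1804, 2346 and 833 at 6 weeks, 1995, 293 and 205 at 20 weeks and 724, 22.4 and 9.58 in treated skin. It rose by 7.07 ± 1.43 (adjusted p = 0.00437) and 5.45 ± 1.43 (adjusted p = 0.0166), and S100a9 rose by 6.17 ± 1.20 (adjusted p = 0.00356) and 4.52 ± 1.20 (adjusted p = 0.0171). Of 29 transcription factors of keratinocyte differentiation, 10 were higher and 5 lower at 6 weeks, and 14 higher and 5 lower at 20 weeks. The lower ones were no larger a share than among all tested genes (21.7% and 18.2%). Ehf, an epithelial ETS factor, rose by 2.13 ± 0.43 (adjusted p = 0.00416) and 2.75 ± 0.43 (adjusted p = 0.00179). Ahr, the aryl hydrocarbon receptor, fell, with differences of -1.35 ± 0.13 (adjusted p = 0.000159) and -1.06 ± 0.13 (adjusted p = 0.000672), and so did Trp63, the basal keratinocyte regulator, with -0.82 ± 0.14 (adjusted p = 0.00167) and -0.58 ± 0.14 (adjusted p = 0.00974).

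Between 6 and 20 weeks no member passed the test: limma called 0 of 43 members higher and 0 lower, where 0.00727% and 0.0291% of all tested genes were called. Without adjustment, 3 of 43 members (6.98%) had p under 0.05, against 19.9% of all tested genes. All 3 were higher at 20 weeks: Lce1a2 at 0.72 (95% interval 0.07 to 1.37, adjusted p = 0.211), Lce1l at 0.70 (95% interval 0.00 to 1.40, adjusted p = 0.250) and Flg2 at 0.62 (95% interval 0.13 to 1.12, adjusted p = 0.172). The Lce1 genes were all but 1 on the higher side, with a family median of 0.67, and the Lce3 genes were all on the lower side, with a median of -1.12. The Sprr2 median was -0.87. The intervals of the single Lce3 and Sprr2 genes were wide, as that of Lce3d, -1.20 (95% interval -3.57 to 1.18, adjusted p = 0.567). Their width rests on a spread pooled over all 12 libraries, including the treated ones, which varied most, and not on the fibrotic libraries alone.

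In 14 of the 43 members all 3 libraries at 20 weeks lay above all 3 at 6 weeks, 11 of them among the 13 Lce1 genes, the others being Kprp, Sprr4 and Flg2. Among all tested genes 17.9% were placed so. In 4 members (Lce3e, Crnn, Tchh and Tchhl1) they lay below, beside 13% of all tested genes. In a fit of the 6 fibrotic libraries alone, 3 members were called higher (Lce1g, Lce1i and Lce1k) and 3 lower (Crnn, Tchh and Tchhl1); over all 13761 genes that fit called 287 higher and 191 lower. Without the first treated library in the fit, Flg2 was called higher, as were 414 of all genes. Inner root sheath and hair shaft sums, given above, were lower in every library at 20 weeks than in every library at 6 weeks, and their part in the lower Tchh, Tchhl1 and Crnn values was not tested.

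The balance of the families is seen within each library, where the total does not matter. The sum of Lce3 divided by the sum of Lce1 was 0.000748, 0.000745 and 0.000826 in normal skin, 0.237, 0.317 and 0.124 at 6 weeks, 0.118, 0.0674 and 0.0444 at 20 weeks and 0.0456, 0.0122 and 0.000865 in treated skin. The sum of Sprr2 divided by that of Lce1 was 0.000864, 0.00216 and 0.00118 in normal skin, 0.312, 0.344 and 0.117 at 6 weeks, 0.165, 0.0726 and 0.0605 at 20 weeks and 0.0771, 0.0193 and 0.00393 in treated skin. Both ratios rose by more than 10-fold from any normal to any fibrotic library. The lowest 6-week and the highest 20-week library nearly met in the first ratio and overlapped in the second.

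**Figure D4:**
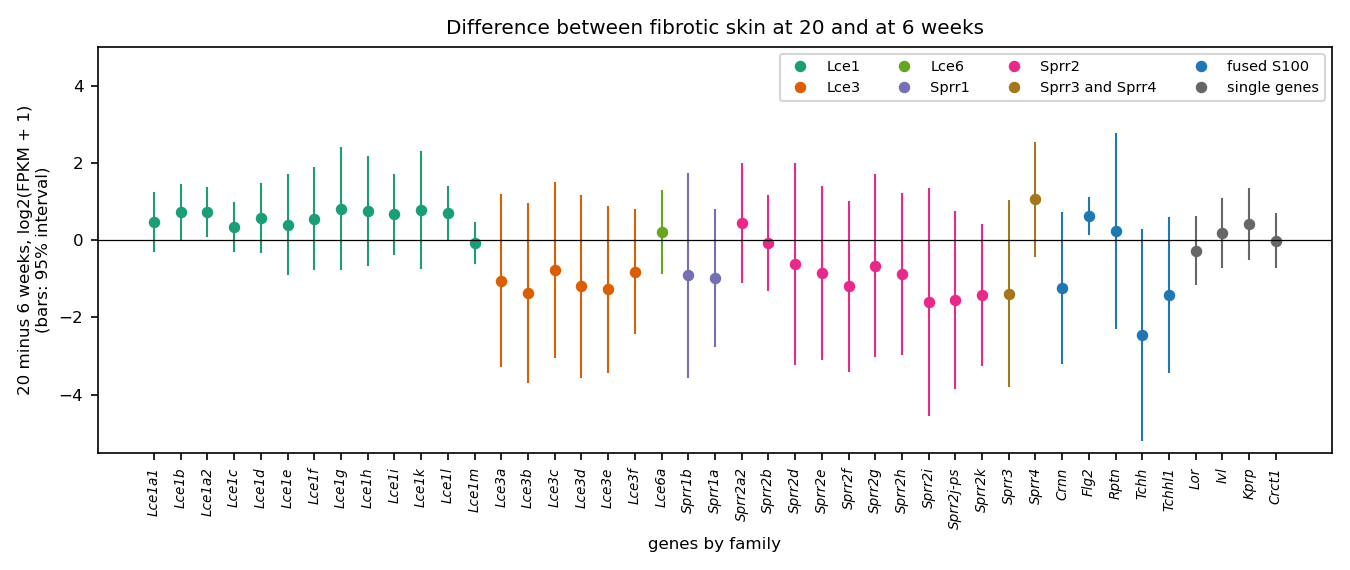
Difference between fibrotic skin at 20 and at 6 weeks on log2(FPKM + 1) with its 95% interval, for the 43 counted members by family. The Lce1 points lie above 0 except that of Lce1m at -0.06, the Lce3 points lie below 0, and most intervals span 0.

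Treated skin was compared with untreated fibrotic skin at 20 weeks. In limma's fit of all libraries 23 of the 43 members were lower in treated skin and 0 were higher, against 10.9% and 4.45% of all tested genes. These 23 were 16 of the 29 members present in normal skin and 7 of the 14 others. Without adjustment, 33 of 43 members (76.7%) had p under 0.05, all of them lower, against 34.7% of all tested genes in either direction. The median difference was -1.57 over the 29 members present in normal skin and 0.00 over all tested genes. Over the 14 others, which passed the filter only through fibrotic or treated libraries, it was -2.93, and over the 43 together -1.77. The unadjusted share was not split in this way. The lower members were all 6 Lce3 genes, 8 of 13 Lce1 genes, Lce6a, Sprr2b and Sprr2k, the 4 tested single genes, Rptn and Flg2. Their adjusted p-values lay between 0.0209 and 0.0455, close to the threshold.

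These calls depended on single libraries and on the fit. The count was 0 without the first or the third untreated library or without the second treated one, 1 without the second untreated or the third treated library, 11 to 15 without any 1 of the normal or 6-week libraries, and 35 without the first treated library. In a fit of these 6 libraries alone, and with no filter on low values, it was 0. Calls over all genes moved with them. Of all tested genes, 1496 were lower in the fit of all libraries, 272, 771 and 1 without the first, the second or the third untreated library, 2778, 334 and 246 without the first, the second or the third treated one, 2 in the fit of the 6 libraries and 937 with no filter.

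Position of the libraries does not use the fit, but it rests on the same values of the same libraries and is no separate support for the calls. In 28 of the 43 members all 3 treated libraries lay below all 3 untreated libraries at 20 weeks and in 0 above, where 19.2% and 13% of all tested genes were placed so. These 28 were 12 of the 13 Lce1 genes, the 6 Lce3 genes, Lce6a, 3 Sprr2 genes, 2 of the 5 fused-type S100 genes counted and the 4 single genes tested. The Lce3 genes other than Lce3c, and the 3 Sprr2 genes (Sprr2b, Sprr2d and Sprr2k), needed groups other than normal skin to pass the filter. With 3 libraries against 3, an exact permutation test of a single gene cannot go below p = 0.1.

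Crct1 had the lowest adjusted p, with a difference of -1.48 ± 0.32 (adjusted p = 0.0209), and Ivl was at -1.77 ± 0.41 (adjusted p = 0.0229), Lor at -1.57 ± 0.40 (adjusted p = 0.0302) and Kprp at -1.75 ± 0.42 (adjusted p = 0.0249). In these 4 genes even the highest treated library was under the lowest untreated one. Rptn had the largest difference, -4.44 ± 1.15 (adjusted p = 0.0316). Lce3e led its family with -3.92 ± 0.97, followed by Lce3d at -3.72 ± 1.07, and Lce3f was the smallest at -2.93 ± 0.73. These Lce3 genes were tested only through fibrotic or treated libraries, so no p-value is given for them. Among the Lce1 genes the called differences ran from -1.11 ± 0.32 (adjusted p = 0.0413) for Lce1l to -2.01 ± 0.59 (adjusted p = 0.0455) for Lce1e.

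Of the Sprr2 genes, Sprr2b (-2.21 ± 0.56) and Sprr2k (-2.83 ± 0.83) were called. Sprr2d had a larger difference, -3.89 (95% interval -6.51 to -1.26), and was not called after adjustment. Nor was Sprr1b, -3.30 (95% interval -5.94 to -0.66). All of these genes needed groups other than normal skin to pass the filter, so no p-value is given for them. Sprr1a was at -0.58 (95% interval -2.36 to 1.20, adjusted p = 0.639) and Sprr4 at 0.06 (95% interval -1.42 to 1.54, adjusted p = 0.962). Flg2, which was already lower in fibrotic than in normal skin, was lower again in treated skin, with a difference of -0.92 ± 0.22 (adjusted p = 0.0256). Lce1m was at -0.32 (95% interval -0.86 to 0.22, adjusted p = 0.379). Tchh and Tchhl1 were on the higher side and not called, 2.18 (95% interval -0.56 to 4.92, adjusted p = 0.236) and 1.30 (95% interval -0.72 to 3.32, adjusted p = 0.335).

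The 3 treated libraries stood far apart. The SD of a member within the group, on log2(FPKM + 1), had a median of 1.57 in treated skin, beside 0.32 in normal skin, 0.35 at 6 weeks and 0.37 at 20 weeks; over all tested genes it was 0.24 in treated skin and 0.14 to 0.15 in the other groups. For the 38 members whose group means differed at least 2-fold between normal and untreated skin at 20 weeks, each treated library was placed on a scale where the normal mean is 0% and the untreated mean 100%. The median position was 82.1% in the first treated library, 41.0% in the second and 0.9% in the third. The libraries kept that sequence in 35 of the 38 members.

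The Lce3 genes stood at 77.4% to 84.9% in the first treated library, 21.3% to 53.2% in the second and -6.8% to 1.5% in the third. In the third library Lce3a, Lce3b and Lce3f were listed at 0, as Lce3a and Lce3f were in all normal libraries and Lce3b in 1 of them. Rptn was at 74.5%, 51.7% and -5.1% in the 3 libraries. The 4 single genes stood at medians of 40.5%, -30.7% and -106.4%, the last 2 beyond the normal mean, and Lor, at 743 FPKM in the third library, was under every normal library.

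**Figure D5:**
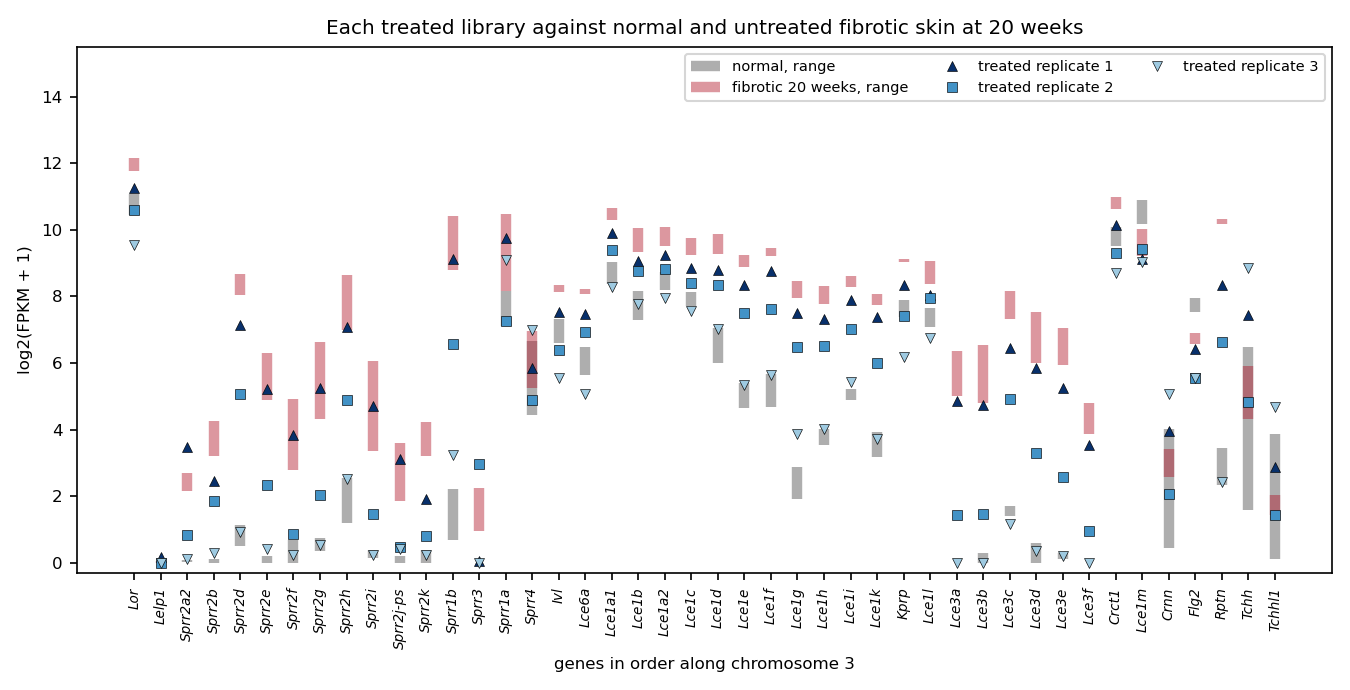
Each treated library (symbols) beside the range of the normal libraries (grey bars) and of the untreated fibrotic libraries at 20 weeks (red bars), on log2(FPKM + 1), for 44 members in order along chromosome 3 (Hrnr left out). In most members replicate 1 lies near the untreated range and replicate 3 near the normal range, while in Sprr4, Crnn, Tchh and Tchhl1 replicate 3 is the highest.

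Other markers differed between the treated libraries as well. The wound keratin sum was 7453 FPKM in the first and 1132 and 1183 in the others. Sebaceous gland markers summed to 1167, 1352 and 701 FPKM in normal skin, 354, 387 and 299 at 6 weeks, 332, 349 and 328 at 20 weeks and 437, 1761 and 2123 in treated skin. Suprabasal markers summed to 10305, 6448 and 4296 FPKM in the 3 treated libraries, and the second and the third were below every normal library. The hair sums given above were highest in the third library and lowest in the second. The ratio of the members' sum to Krt5 and Krt14, given above, was 1.56, 1.09 and 0.953 in treated skin, under the lowest untreated value of 2.64. The part of cell makeup in the difference between treated and untreated skin was not tested.

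Of the 15 enzymes, 9 were lower in treated than in untreated skin and 0 higher, among them Casp14 at -2.76 ± 0.54 (adjusted p = 0.0179), Asprv1 at -1.90 ± 0.47 (adjusted p = 0.0283) and Blmh, the bleomycin hydrolase gene, at -1.87 ± 0.48 (adjusted p = 0.0307). Of the 14 other envelope and corneodesmosome genes 9 were lower and 0 higher, led by Dsc1 (desmocollin 1) at -2.45 ± 0.49 (adjusted p = 0.0183). Of the 14 S100 and peptidoglycan recognition genes, 1 was higher and 1 lower. Among all tested genes, 10.9% were called lower and 4.45% higher in this comparison, and the S100 counts were near these shares. Of the 29 transcription factors 8 were lower and 0 higher, with Rora, a nuclear receptor, at -1.82 ± 0.33 (adjusted p = 0.0162), Ehf at -1.42 ± 0.43 (adjusted p = 0.0489) and Prdm1 at -1.18 ± 0.32 (adjusted p = 0.0347).

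Set against normal skin, treated skin had 9 of 43 members higher and 2 lower, where 7.57% and 13.2% of all tested genes were called. The treated libraries are the same as in the comparison above, and the normal libraries the same as for fibrotic skin. All 9 were among the 29 members present in normal skin: the 7 genes from Lce1d to Lce1k, Sprr1b and Sprr2h. Lce1g was at 3.71 ± 0.72 (adjusted p = 0.00871) and Sprr2h at 2.99 ± 0.94 (adjusted p = 0.0483). Sprr1b was at 4.76 ± 1.19, with no p-value given because it needed other groups to pass the filter. None of the 6 Lce3 genes was called. Lce3d was at 2.92 (95% interval 0.55 to 5.30) and Lce3b at 1.93 (95% interval -0.40 to 4.25). Both passed the filter only through fibrotic or treated libraries, so no p-value is given for them. Lce1m and Flg2 were again the 2 lower members, at -1.40 ± 0.24 (adjusted p = 0.00628) and -1.88 ± 0.22 (adjusted p = 0.00183), and both lay below the normal range in all 3 treated libraries. The count of higher members was 1 without the first or the third normal library, 5 without the second, 4 without the first treated library, 2 without the second and 21 without the third. It was 0 in a fit of these 6 libraries alone, where 33 of all genes were called higher, and 2 with no filter on low values, where 746 were, from 1042 in the fit of all libraries. Of the 15 enzymes, 2 were higher than in normal skin and 0 lower; of the 14 envelope and corneodesmosome genes, 2 were higher and 2 lower.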

How the data were processed

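Whole skin of 4 groups of 3 libraries was profiled by stranded, paired-end poly-A RNA-seq, per the labels' protocols. The authors deposited 1 table of FPKM values for 23359 genes in 12 libraries. The submitters' processing notes name the build mm10, alignment tools (TopHat2 2.0.13 and Bowtie2 2.2.3) and Cufflinks 2.2.1, besides trimming (cutadapt 1.7.1) and quality (FastQC 0.11.2) tools, with no settings. Depth is unknown: low values did not fall on whole-read steps, so no counts were recovered and no counting interval is given. FPKM summed to 463271 to 681633 per library without short RNAs.

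Genes reaching 1 FPKM in at least 3 libraries (13761) were tested with limma 3.58.1 (R 4.3.3, trend) on log2(FPKM + 1), in 1 fit of all groups with 5 comparisons and Benjamini-Hochberg adjustment within each. Simulated data were given 1 spread per gene, the same in all groups. There, 64% to 72% of genes changed 2-fold and 85% to 92% of those changed 4-fold were called, with 4 to 9 false calls. In the data treated skin varied more (median SD over all tested genes 0.24, against 0.14 to 0.15 in the other groups). These rates therefore do not describe the comparisons with treated skin. The members and gene lists were chosen with earlier results of these data known. Full values are given for the single and fused-type S100 genes, the extreme and the most abundant genes of each family, and every member called between treated and untreated or late and early skin; of other lists, up to 3 called genes with the largest differences, and a few others chosen after their values were seen; 1 gene that this rule names is not reported here. Replicate numbers are shared between groups; same-numbered libraries deviated together (r over 0.1) in 5 of 18 pairs (r from -0.35 to 0.29), so the numbers were not taken as pairs. Transcript overlaps used GENCODE, within the Sprr, Lce and other named genes only, and promoters used RefSeq.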

Additional observations from a re-analysis of the deposited data

How the results depend on the processing

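Counts of members higher or lower than normal skin stayed within 1.5 times in both fibrotic groups under every setting tried, except that at least a 2-fold change left 1 lower member at 20 weeks. A fit of the 6 libraries compared gave 3 members higher and 3 lower between 20 and 6 weeks, 0 lower in treated than in untreated skin, and 0 higher and 1 lower in treated than in normal skin. With no filter on low values, 0 members were lower in treated than in untreated skin and 2 higher in treated than in normal skin. Leaving out 1 library at a time gave 0 to 35 members lower in treated than in untreated skin, 1 to 21 higher and 2 to 4 lower in treated than in normal skin, and 0 to 1 higher at 20 than at 6 weeks. The causes were not tested. With a replicate block, the counts were 33 higher at 6 weeks, 34 at 20 weeks, 22 lower in treated than in untreated skin and 9 higher in treated than in normal skin, and no count moved by over 1.5 times. Equal library totals after removing members, muscle and hair genes moved the median of all genes to -0.35 at 6 weeks, -0.31 at 20 weeks and 0.23 for treated against untreated skin, and the calls over all genes to 1295 higher and 5879 lower, 1101 and 5260, and 2080 and 702, from 2427 and 2982, 2102 and 2503, and 612 and 1496. The members' counts were then 33 and 34 higher in fibrotic skin and 18 lower in treated skin. Of 3907 member values recomputed, 3430 kept direction and call, 383 lost the call, 63 gained one, 31 uncalled values changed sign and 0 called values reversed. Without counts, the precision of low values cannot be given, and 3 libraries a group limit each comparison.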
